A study of Mus musculus with 20 samples.

Results

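The liver response to ethinylestradiol (EE2) was set against the liver response to chlorpromazine (CPZ), as the difference (EE2 minus oil) minus (CPZ minus PBS) for every gene. The groups were taken from the sample titles, and all 20 of the 20 arrays in the series entered, 5 in each of 4 groups. Among the 16464 genes tested, the members are the genes whose responses differed and those that changed the same way under both compounds. The study measured liver messenger RNA of male C57BL/6 mice, 10 weeks old and weighing 21 to 27 g, on Affymetrix 3' expression arrays after 25 days of oral gavage. The groups were EE2 at 3.70 mg/kg, its vehicle sunflower oil, CPZ at 10 mg/kg, and its vehicle PBS. Because dose and vehicle differ between the compounds, the difference of responses describes these regimens and not the compounds at a matched dose. Nothing in the labels ties each array to its own animal, and every p-value below therefore reflects variation among these arrays, which may be technical.

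EE2 is a synthetic estrogen, and CPZ is an antipsychotic of the phenothiazine class; both are known to disturb bile flow. Hepatocytes make bile acids from cholesterol with enzymes such as Cyp7a1 and Cyp8b1, export them through canalicular pumps such as Abcb11, and can send them back to the blood through basolateral pumps such as Abcc3. Foreign compounds are sensed by the nuclear receptors CAR and PXR, and the cytochrome P450 gene Cyp2b10 is a well known target of CAR in mouse liver.

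The 12 hepatocyte markers fixed for checking the tissue averaged 12.99 to 13.01 on the log2 scale on the EE2 arrays, 13.04 to 13.07 on the oil arrays, 13.01 to 13.06 on the CPZ arrays and 13.04 to 13.12 on the PBS arrays. The liver label therefore fits these markers on every array. Values are log2 robust multi-array averages (RMA), and a gene is called when its Benjamini-Hochberg adjusted p in limma, over all 16464 genes, is under 0.05. In all, 3 libraries stood apart in the CPZ experiment. The mean level of 28 acute phase genes was 10.66 on CPZ array 1 and 10.79 on CPZ array 11, against 9.65 to 9.95 on the other CPZ arrays. On PBS array 20 it was 10.46, against 9.69 to 9.77 on the other PBS arrays. Counts of CPZ calls are therefore also given without these 3 arrays, and so are named genes that lost their CPZ call without them. That fit has fewer CPZ and PBS arrays and so less precision. A call lost in it does not by itself show that the change became smaller.

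The responses differed at 5209 genes, which is 31.6% of those tested. The EE2 response was the higher at 2404 genes (14.6%) and the lower at 2805 (17.0%), and the difference was at least 2-fold at 561 and 219 of them. EE2 against oil changed 7560 genes (45.9%), 3166 higher and 4394 lower. CPZ against PBS changed 131 genes (0.796%), 73 higher (0.443%) and 58 lower (0.352%), and only 7 of the higher and 4 of the lower genes reached 2-fold. The CPZ count was 104 without CPZ arrays 1 and 11 and PBS array 20, of which 59 were among the 131. It was 47 without PBS array 14, 53 without CPZ array 3, 65 without CPZ array 4, 86 without CPZ array 1 and 20 with the sample number of the titles as a covariate. Sample numbers run from 1 to 12 in CPZ and from 7 to 20 in PBS. The covariate is thus partly confounded with treatment, and a call lost with it cannot be assigned to the number. The vehicles themselves, oil minus PBS, differed at 8 genes (0.0486%), 3 higher (0.0182%) and 5 lower (0.0304%) in oil. Counted over arrays instead, EE2 and oil did not overlap at 31.8% of genes, and CPZ and PBS at 2.98%. For the responses, EE2 arrays minus the oil mean and CPZ arrays minus the PBS mean did not overlap at 34.3%. This overlap between responses leaves out the spread of the vehicle arrays and is not a like measure. Of the 5209 genes, 4766 (91.5%) were called for EE2 and not for CPZ, 57 (1.09%) for both, 23 (0.442%) for CPZ and not for EE2, and 363 (6.97%) for neither. The median size of a gene's fitted change was 0.177 for EE2 and 0.067 for CPZ. Centring each array on its median moved the median EE2 change of all genes to -0.23, against -0.07 as deposited, and then 20.3% of the difference calls were on the higher side, against 46.2%.

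**Figure D1:**
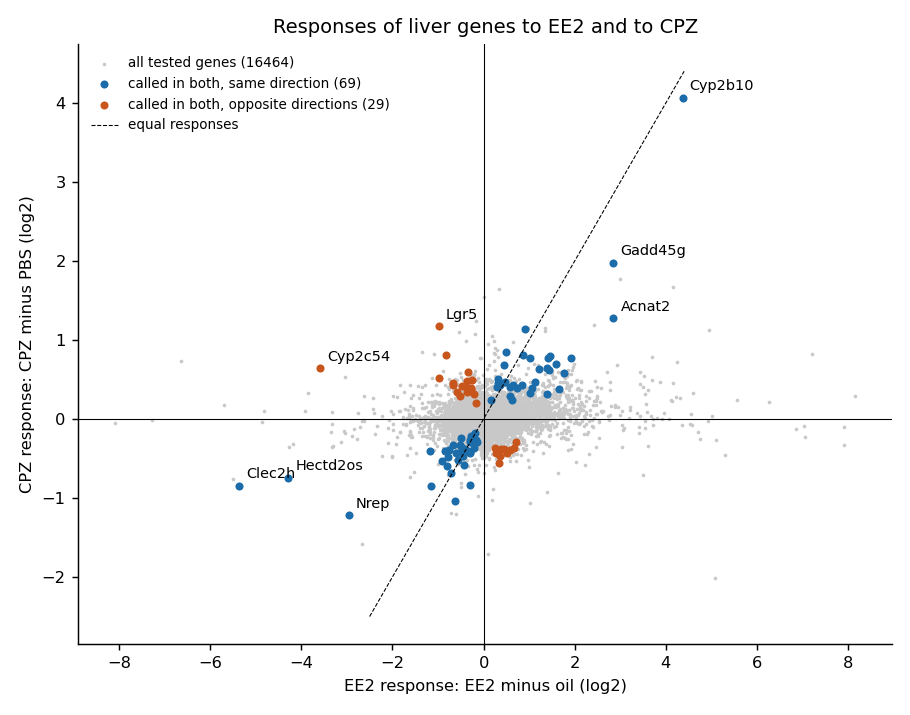
The EE2 response (EE2 minus oil, log2) on the horizontal axis and the CPZ response (CPZ minus PBS, log2) on the vertical axis, for 16464 genes. The 69 genes called in both with the same direction are blue, the 29 called in opposite directions are orange, and Cyp2b10 lies close to the dashed line of equal responses, at 4.36 and 4.07. The labelled genes were chosen after their values were seen.

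Across genes, the fitted EE2 and CPZ changes had a Pearson r of 0.175 over all 16464 genes (Spearman rho 0.087). Over the 131 genes called for CPZ, Pearson r was 0.556 and Spearman rho 0.458. Genes are not independent replicates, and these values are descriptions. The contrasts share no array. Of the 73 genes higher with CPZ, 33 (45.2%) were higher with EE2, 19 (26.0%) were lower with EE2 and 21 were not called for EE2, beside 19.2% and 26.7% of all genes called higher and lower with EE2. Of the 58 genes lower with CPZ, 36 (62.1%) were lower with EE2, 10 (17.2%) were higher and 12 were not called.

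The genes with the largest difference of responses were changed by EE2 and had no called CPZ response. The highest differences among genes whose array values did not overlap between responses were at Sult3a1 (8.24), a sulfotransferase gene of female-biased expression in mouse liver, the keratin genes Krt79 (8.02) and Krt4 (7.12), Prtn3 (7.87), which encodes a neutrophil protease, Epp13 (7.27) and Tff3 (7.10), a trefoil factor gene. The lowest were at Hsd3b5 (-8.03), Elovl3 (-7.38), Slco1a1 (-7.27), Slc22a7 (-5.87), Cyp4a12a (-4.92) and Car3 (-4.83). Tff3 had the largest CPZ change among these genes, -2.02 (SE 0.51, limma adjusted p = 0.0656), with 5.53 to 7.65 on CPZ arrays and 7.56 to 11.20 on PBS arrays. The EE2 levels of Tff3 were 11.88 to 12.36, against 6.46 to 7.70 with oil. Elovl3 was also higher on every CPZ array (10.90 to 11.68) than on any PBS array (10.46 to 10.67).

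Both compounds changed 69 genes the same way (0.419% of all genes), 33 higher and 36 lower, which is 52.7% of the CPZ calls and 0.913% of the EE2 calls. The rule fixes the shared direction, so it is given as a description. The count was 25 without PBS array 14 and 27 without CPZ array 3, and 39 (31 of them shared) without CPZ arrays 1 and 11 and PBS array 20. With the sample number as a covariate it was 12. The difference of responses was itself called at 28 of these 69, and the EE2 change was the larger in 47. The genes given next are those whose larger p of both contrasts was the smallest. This order does not ask the changes to be alike in size.

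Cyp2b10 carried the largest shared change. Its level was 7.99, 6.60, 7.99, 7.34 and 7.89 on the EE2 arrays, against 3.40, 3.03, 3.59, 3.02 and 2.94 on the oil arrays. It was 8.07, 9.17, 8.57, 8.42 and 8.53 on the CPZ arrays, against 4.43, 3.96, 4.95, 4.94 and 4.17 on the PBS arrays. Neither compound overlapped its vehicle. The EE2 change was 4.36 (SE 0.25, limma adjusted p = 1.6e-11), or 20.6-fold, and the CPZ change was 4.07 (SE 0.25, limma adjusted p = 9.18e-09), or 16.8-fold. The difference was 0.30 (95% interval -0.45 to 1.05, limma adjusted p = 0.558), so it was not separable from 0 at this spread. The oil and PBS levels differed by -1.29 (limma adjusted p = 0.0672). The oil levels lay around the lower quartile of all values on the oil arrays, which was 3.14 to 3.17. The PBS levels lay above that of the PBS arrays, 3.12 to 3.18. At so low an oil level the EE2 fold, and with it the likeness of the responses, is less certain.

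Proximal promoters are shown for 4 of the 5 Cyp2 genes described here, so that the sequences before a gene with a large shared response (Cyp2b10), a small shared one (Cyp2c29), one called for CPZ and not for EE2 (Cyp2c55) and one not called for CPZ (Cyp2c50) can be read side by side. The fifth, Cyp2c54, is named only. Each is the stretch of 250 bases before the annotated start in RefSeq, build GRCm38.p6, plus strand. Capitals mark the nuclear receptor half-site (AGGTCA) or the TATA box, both searched on each strand and added after the data were seen. The half-site is contained in the direct repeat named below, so a match to that repeat would hold it, while the estrogen response element need hold only its last 5 bases.
Cyp2b10 (chr7:25897408-25897657): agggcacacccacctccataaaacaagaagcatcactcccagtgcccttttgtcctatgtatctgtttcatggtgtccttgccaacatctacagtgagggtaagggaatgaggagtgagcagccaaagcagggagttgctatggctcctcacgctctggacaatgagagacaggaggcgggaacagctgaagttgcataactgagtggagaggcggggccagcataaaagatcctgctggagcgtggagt
Cyp2c29 (chr19:39286835-39287084): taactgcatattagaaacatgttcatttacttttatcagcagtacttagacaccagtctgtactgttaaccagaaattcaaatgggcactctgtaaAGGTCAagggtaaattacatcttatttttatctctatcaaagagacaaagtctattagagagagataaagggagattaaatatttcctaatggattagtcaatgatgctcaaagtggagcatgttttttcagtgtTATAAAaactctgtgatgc
Cyp2c55 (chr19:39006769-39007018): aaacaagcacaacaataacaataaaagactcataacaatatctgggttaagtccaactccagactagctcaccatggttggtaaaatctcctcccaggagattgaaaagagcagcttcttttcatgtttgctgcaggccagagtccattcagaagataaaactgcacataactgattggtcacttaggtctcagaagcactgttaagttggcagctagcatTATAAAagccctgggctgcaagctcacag
Cyp2c50 (chr19:40089429-40089678): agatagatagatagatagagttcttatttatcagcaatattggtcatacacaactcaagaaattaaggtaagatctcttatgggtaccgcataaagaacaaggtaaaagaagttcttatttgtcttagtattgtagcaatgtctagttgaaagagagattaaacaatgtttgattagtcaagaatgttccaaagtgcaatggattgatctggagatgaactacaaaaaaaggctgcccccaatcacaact
Cyp2c29 holds the half-site 154 bases and the TATA box (searched as TATAAA) 19 bases before its start, and Cyp2c55 holds the TATA box 29 bases before its start. Of 13162 promoters of measured genes, taken from 250 bases before to 50 after the start, 16.2% hold the half-site and 11.5% the TATA box. Among 56 such promoters of the genes changed the same way, 11 (19.6%) hold the half-site and 6 (10.7%) the TATA box. The palindromic estrogen response element GGTCANNNTGACC was found in 4 of the 13162, the direct repeat of the half-site with the spacing of 4 bases, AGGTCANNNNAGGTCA, in 0, and the STAT palindrome TTCNNNGAA in 8.74% of them, 8.56% of the genes with the higher EE2 response and 8.76% of those with the lower. No match says only that these letters are not in this window. The 4 printed stretches were 46.9% to 57.5% identical in pairs.

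Cyp2c29, a cytochrome P450 gene of drug and fatty acid metabolism, moved with Cyp2b10 in both experiments but by much less. Its level was 12.98 to 13.15 on the EE2 arrays, against 12.54 to 12.80 on the oil arrays, and 13.21 to 13.32 on the CPZ arrays, against 12.74 to 12.93 on the PBS arrays. The change was 0.37 with EE2 (SE 0.06, limma adjusted p = 1.4e-05) and 0.43 with CPZ (SE 0.06, limma adjusted p = 0.000816). The difference was -0.06, with a 95% interval of -0.23 to 0.10.

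Gadd45g, a stress and growth arrest gene, rose in both. Its level was 8.40, 8.87, 8.67, 7.58 and 8.08 with EE2, against 4.61, 4.94, 5.77, 5.67 and 6.42 with oil. It was 6.55, 7.89, 7.00, 6.28 and 7.41 with CPZ, against 4.66, 5.00, 5.05, 5.06 and 5.46 with PBS. No array of either compound reached down to its vehicle's. The change was 2.84 with EE2 (SE 0.32) and 1.98 with CPZ (SE 0.32), with limma adjusted p of 3.1e-07 and 0.00454, and the difference of 0.86 was not called (limma adjusted p = 0.155).

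Wfdc17, Pnp, Csrp3, Serpinb6a and Mrc1 also rose in both, with limma adjusted p up to 0.000189 for EE2 and 0.0138 for CPZ. The CPZ changes were 0.77, 0.41, 0.64, 0.32 and 0.47, and the EE2 changes were 1.02, 0.59, 1.40, 1.38 and 0.46. Only Csrp3 (0.75, limma adjusted p = 0.00144) and Serpinb6a (1.06, limma adjusted p = 6.74e-09) differed between the responses among these 5. Without CPZ arrays 1 and 11 and PBS array 20, the CPZ calls of Csrp3, Serpinb6a and Mrc1 were lost (limma adjusted p of 0.0871, 0.101 and 0.0871). Mrc1 encodes the macrophage mannose receptor and Pnp the purine salvage enzyme purine nucleoside phosphorylase.

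Gys2, the liver glycogen synthase gene, fell in both by nearly the same amount. Its level was 9.93, 10.01, 9.95, 9.98 and 10.09 with EE2, against 10.38, 10.59, 10.47, 10.36 and 10.41 with oil. It was 9.84, 9.86, 9.91, 10.00 and 9.94 with CPZ, against 10.18, 10.35, 10.47, 10.55 and 10.33 with PBS. Both compounds lay below their vehicle on every array. The change was -0.45 with EE2 (SE 0.06, limma adjusted p = 6.28e-06) and -0.47 with CPZ (SE 0.06, limma adjusted p = 0.00136), and the difference was 0.01 (95% interval -0.17 to 0.20).

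Zbtb11 (-0.40 with EE2, -0.38 with CPZ), Zfp758 (-0.78 and -0.48), Riok2 (-0.48 and -0.37), Fam81a (-0.80 and -0.60), Pcmtd2 (-0.30 and -0.29) and Daam1 (-0.68 and -0.33) fell in both as well. The CPZ adjusted p of these 6 in limma ran up to 0.0172. Riok2 encodes a kinase of ribosome assembly. Hectd2os was far less alike: its change was -4.28 with EE2 and -0.74 with CPZ, a difference of -3.54 (SE 0.20, limma adjusted p = 2.82e-11).

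**Figure D2:**
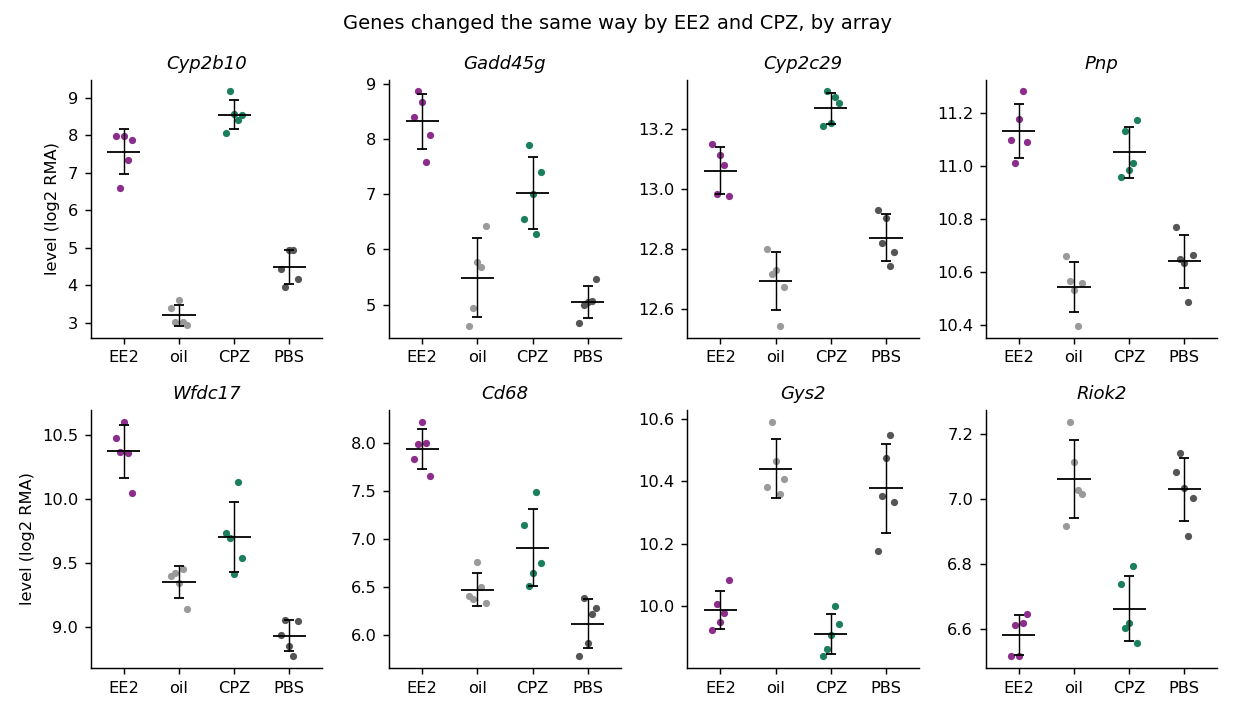
Levels (log2 RMA) of 8 genes that changed the same way, by array, in the order EE2, oil, CPZ and PBS; lines are means and bars are SD of 5 arrays. In each panel the EE2 and the CPZ arrays lie on the same side of their own vehicle.

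Opposite changes were called at 29 genes (0.176% of all genes), 10 higher and 19 lower with EE2. The difference was called at every one of them, which choosing called changes of opposite sign nearly fixes in advance. Without CPZ arrays 1 and 11 and PBS array 20 the count was 28, of which 11 were shared, and with the sample number as a covariate it was 2. The count was 9 without PBS array 14 and 10 without CPZ array 3. None of Lgr5, Clec4g, Adgrl4, Selenoi, Fcgr2b, Fam89a, Nfx1, Slc25a32, Ulk1, Arsa, Lmo7 and Ctu1 kept its CPZ call with that covariate, where limma adjusted p ran from 0.0721 to 0.274. As the covariate is partly confounded with treatment, these losses do not tell the number and CPZ apart. Lgr5, a Wnt-responsive gene of hepatocytes around the central vein, had the largest CPZ rise among them. Its level was 4.83, 4.58, 4.17, 4.41 and 4.30 with EE2, against 5.37, 5.82, 5.02, 6.07 and 4.94 with oil. It was 6.16, 5.86, 6.15, 5.57 and 5.75 with CPZ, against 5.11, 4.61, 4.63, 4.53 and 4.73 with PBS. EE2 lay below every oil array and CPZ above every PBS array. The change was -0.99 with EE2 (SE 0.19, limma adjusted p = 0.000214) and 1.18 with CPZ (SE 0.19, limma adjusted p = 0.00407). The difference was -2.16 (SE 0.27, limma adjusted p = 2.68e-06). Oil minus PBS was 0.72 for Lgr5 and was not called (limma adjusted p = 0.187). Of the other 16 measured pericentral genes, none was called for CPZ. With 0.796% of all genes called for CPZ, that absence says nothing particular to them. The list of 17 held 1 higher and 12 lower for the difference, beside 14.6% and 17.0% of all genes.

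Cyp2c54, a further Cyp2c gene, showed the largest split. Its level was 8.19 to 8.51 with EE2, against 11.86 to 12.14 with oil, and 12.38 to 12.76 with CPZ, against 11.31 to 12.36 with PBS. EE2 lay more than 3 log2 units under oil, while the lowest CPZ array and the highest PBS array were nearly level. The change was -3.60 with EE2 and 0.65 with CPZ (limma adjusted p = 1.62e-14 and 0.0268), a difference of -4.24 (SE 0.20). Cyp2c50 had -1.37 with EE2 (limma adjusted p = 3.89e-10) and 0.32 with CPZ (limma adjusted p = 0.142). Cyp2c genes are close relatives, and probes of one may also read another.

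Clec4g, a lectin of liver sinusoidal endothelium, was 9.42, 9.21, 9.58, 9.47 and 9.12 with EE2, against 10.05, 10.08, 10.18, 9.95 and 9.89 with oil. It was 10.24, 10.20, 10.18, 10.34 and 10.14 with CPZ, against 9.80, 9.87, 9.67, 9.72 and 9.75 with PBS. The groups did not overlap in either pair. The change was -0.67 with EE2 (SE 0.08, limma adjusted p = 3.85e-07) and 0.46 with CPZ (SE 0.08, limma adjusted p = 0.00598), a difference of -1.13 (limma adjusted p = 1.02e-07). Fcgr2b (-0.47 and 0.42), Adgrl4 (-0.59 and 0.34), Selenoi (-0.52 and 0.29), Fam89a (-0.83 and 0.81) and the endothelial receptor gene Tek (-0.68 and 0.43) also fell with EE2 and rose with CPZ, with limma adjusted p for CPZ of 0.0166 to 0.0374. Oil minus PBS was 0.39 for Fcgr2b, 0.342 for Tek, 0.312 for Fam89a, 0.265 for Clec4g, 0.253 for Adgrl4 and 0.038 for Selenoi. None of these vehicle differences was called (limma adjusted p from 0.113 to 0.921). For Fcgr2b the mean was 7.86 with EE2, 7.94 with PBS, 8.33 with oil and 8.36 with CPZ. The part of the vehicle levels in these opposite changes was not tested. Without CPZ arrays 1 and 11 and PBS array 20, Clec4g (limma adjusted p = 0.0723), Fcgr2b (0.17), Adgrl4 (0.126) and Tek (0.0549) were no longer called for CPZ. On the remaining arrays each of them still had every CPZ level above every PBS level. For Tek these were 6.84 to 7.06 with CPZ and 6.10 to 6.59 with PBS.

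In the other direction, Nfx1 was 6.76 to 6.92 with EE2, against 6.05 to 6.43 with oil, and 5.77 to 6.06 with CPZ, against 6.24 to 6.39 with PBS. Its change was 0.58 with EE2 (SE 0.07, limma adjusted p = 1.03e-06) and -0.39 with CPZ (SE 0.07, limma adjusted p = 0.0117). Ulk1, a kinase that starts autophagy, changed by 0.37 and -0.38, and Arsa, the lysosomal arylsulfatase A, by 0.67 and -0.37. Slc25a32 (0.44 and -0.38), Lmo7 (0.70 and -0.29) and Ctu1 (0.51 and -0.43) complete the 6 named. The CPZ adjusted p in limma of these last 5 ran from 0.0168 to 0.0442. Without the same 3 arrays, Ulk1 (limma adjusted p = 0.197), Arsa (0.157) and Slc25a32 (0.0533) were no longer called for CPZ.

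**Figure D3:**
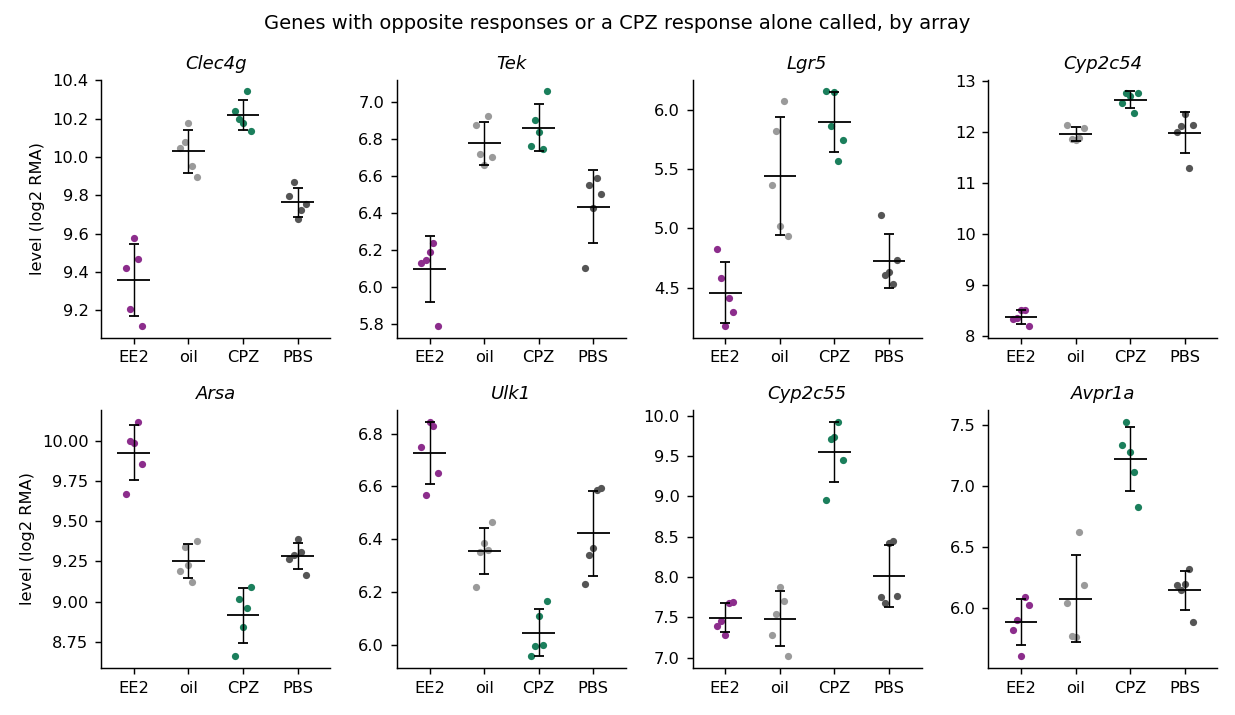
Levels (log2 RMA) by array, in the order EE2, oil, CPZ and PBS, of 6 genes called in opposite directions and of Cyp2c55 and Avpr1a, called for CPZ and not for EE2; lines are means and bars are SD of 5 arrays. CPZ arrays do not overlap PBS arrays in any panel, though for Cyp2c54 the lowest CPZ and highest PBS arrays are nearly level. In the first 6 panels the CPZ change is opposite to that of EE2.

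Cyp2c55 and Avpr1a changed with CPZ and were not called for EE2. Cyp2c55 was 7.39, 7.45, 7.28, 7.68 and 7.68 with EE2, against 7.28, 7.55, 7.88, 7.70 and 7.02 with oil. It was 8.95, 9.71, 9.73, 9.92 and 9.45 with CPZ, against 7.76, 7.68, 8.42, 8.44 and 7.76 with PBS. EE2 and oil overlapped fully, and no CPZ array overlapped a PBS array. The CPZ change was 1.54 (SE 0.19, limma adjusted p = 0.000639), or 2.9-fold, the EE2 change was 0.01 (SE 0.19), and the difference was -1.52 (SE 0.27, limma adjusted p = 0.000165).

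Avpr1a, the vasopressin receptor of hepatocytes, was 5.60 to 6.09 with EE2, against 5.76 to 6.62 with oil, and 6.83 to 7.53 with CPZ, against 5.88 to 6.32 with PBS. Its CPZ change was 1.08 (SE 0.15, limma adjusted p = 0.00136) and the difference was -1.26 (SE 0.21, limma adjusted p = 8.42e-05). Tnfaip2 (0.87) and Abtb2 (0.83) rose with CPZ and Arhgef26 fell by 1.02, with limma adjusted p of 0.00636, 0.00406 and 0.0302. Cxcl13, a B cell chemokine gene, had 0.95 (limma adjusted p = 0.0482), a call kept in 3 of the 20 fits that leave out 1 array and lost without the same 3 arrays (limma adjusted p = 0.189).

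Among 18 genes fixed whatever their result, mostly of bile acid and drug handling but also Esr1 and Lcn2, Cyp2b10 alone was called for CPZ. The difference of responses was called at 8 of the 18, beside 31.6% of all genes: Cyp8b1 (-4.02), Abcb11 (-0.65), Abcb4 (-0.36), Abcc3 (1.18), Nr1h4 (0.45), Esr1 (0.84), Cyp1a2 (-1.56) and Lcn2 (3.83). Cyp8b1, the sterol 12-alpha-hydroxylase, was 6.46 to 7.66 with EE2, against 10.47 to 11.32 with oil, and 10.74 to 11.64 with CPZ, against 10.47 to 11.29 with PBS. The bile salt export pump Abcb11 changed by -0.61 with EE2 and 0.05 with CPZ, and Abcc3 by 1.33 and 0.15.

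Cyp7a1, whose enzyme limits the rate at which bile acids are made, had a difference of 1.10 (SE 0.43, limma adjusted p = 0.0582), with 0.21 for EE2 and -0.89 for CPZ. Its intervals were wide, and oil arrays ran from 8.35 to 10.20. For Lcn2, an acute phase gene, the CPZ arrays fell into 10.13 and 10.41 on arrays 1 and 11 and 5.01 to 6.34 on the other 3, and PBS array 20 was at 9.39, against 5.43 to 5.81 on the other 4.

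**Figure D4:**
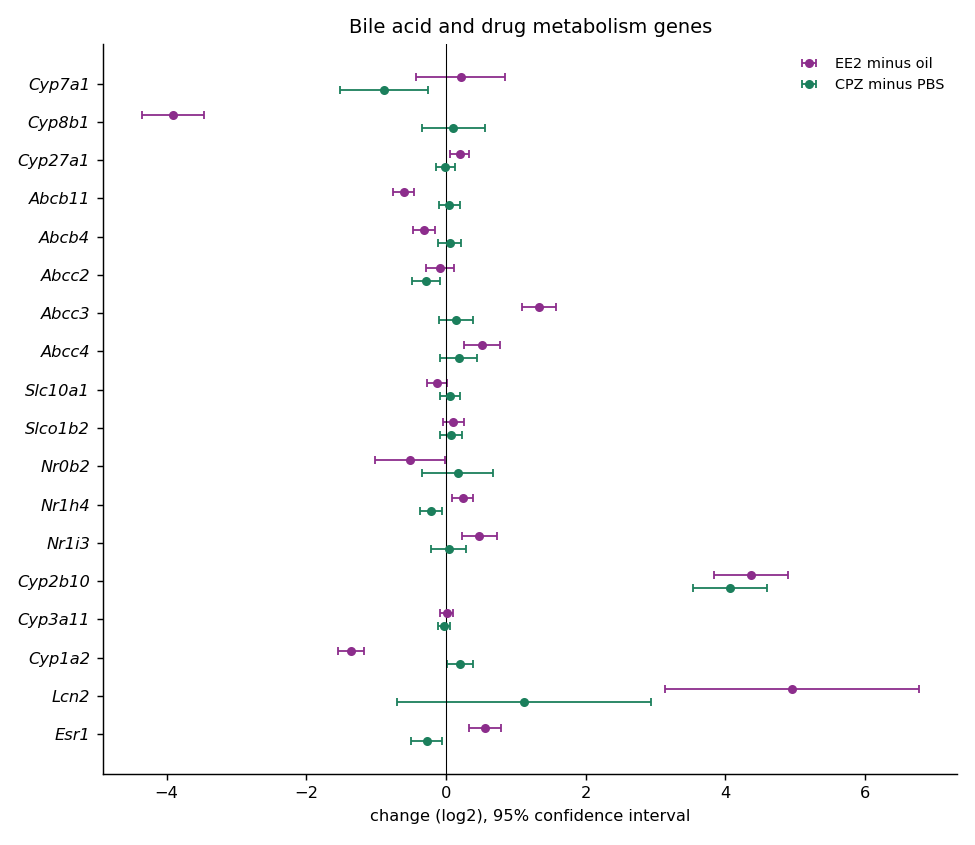
EE2 and CPZ responses (log2 change against the own vehicle) of the 18 fixed genes, as points with 95% confidence intervals, EE2 above CPZ for each gene. Cyp2b10 is high for both, Cyp8b1 lies at -3.92 for EE2 and at 0.11 for CPZ, and Lcn2 has the widest intervals.

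Described by gene lists, macrophage markers held calls in the same direction under both compounds. Of 20 measured, 15 were higher and 1 lower for the difference, against 14.6% and 17.0% of all genes, and 3 were called higher with CPZ: C1qa (0.64), Cd68 (0.79) and Adgre1 (0.62), with limma adjusted p of 0.0168, 0.0195 and 0.0325. The median change of the list was 1.39 with EE2 and 0.54 with CPZ, and 18 of 20 had a fitted CPZ change above 0. The mean level of the list was 7.67 to 8.24 with EE2, 6.64 to 6.89 with oil, 6.81 to 7.46 with CPZ and 6.40 to 6.69 with PBS, highest on CPZ array 11. Without CPZ arrays 1 and 11 and PBS array 20, none of the 20 was called for CPZ and the median CPZ change was 0.34. In whole liver, more cells of a type and more RNA per cell cannot be told apart.

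Of 18 measured endothelial markers, 1 was higher and 10 lower for the difference, beside 14.6% and 17.0% of all genes. With EE2, 2 were called higher and 9 lower. With CPZ, 5 were called higher, beside 0.443% of all genes: Tek, Clec4g and Fcgr2b, which fell with EE2, and Bmp2 and Stab2, whose EE2 changes of 0.02 and 0.16 were not called. The median was -0.26 with EE2 and 0.26 with CPZ, and 17 of 18 had a fitted CPZ change above 0. Without the same 3 arrays none of the 18 was called for CPZ, while the median CPZ change was 0.25. The mean level of the list was 6.19 to 6.52 with EE2, 6.40 to 6.59 with oil, 6.54 to 6.61 with CPZ and 6.23 to 6.41 with PBS. By group means, EE2 thus lay nearer to PBS than to oil, and oil lay nearer to CPZ than to PBS. The gap between oil and PBS was larger than the EE2 fall and smaller than the CPZ rise. The part of the vehicle levels in the opposite medians was not tested. The part of these cell type markers in the other results was not tested.

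The CAR and PXR target list held 7 higher and 6 lower of 21 measured for the difference, beside 14.6% and 17.0% of all genes, and 4 called higher with CPZ, beside 0.443%: Cyp2b10, Cyp2c29, Cyp2c54 and Cyp2c55. The same number was called without the 3 arrays. The list's median difference, 0.03, turned to -0.11 when arrays were centred, so no direction is given for it. Of 19 measured circadian clock genes, Dbp (-0.43) and Tef (-0.30) fell with CPZ, beside 0.352% of all genes, and both also fell with EE2 (-0.60 and -0.22). Without CPZ arrays 1 and 11 and PBS array 20 the list held 1 higher and 5 lower CPZ calls, and the same counts without CPZ array 11 alone. The CPZ call of Dbp was kept in 6 of the 20 fits that leave out 1 array, and that of Tef in 13.

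Several lists had many members called for the difference, beside 14.6% higher and 17.0% lower of all genes. With 0.796% of all genes called for CPZ, an absence of CPZ calls in a list of this size says nothing particular to it. Male-biased liver genes were lower for the difference in 15 of 19 and female-biased ones higher in 13 of 21. Estrogen-responsive genes were higher in 13 of 21, and Apoa4 and Gadd45g were their 2 CPZ calls, of which Apoa4 was lost without CPZ arrays 1 and 11 and PBS array 20 (limma adjusted p = 0.111). Of 23 lysosome and phospholipidosis genes, 15 were higher and none lower for the difference, and the median CPZ change was 0.00. Cholesterol synthesis genes were higher in 10 of 15 and bile acid synthesis genes lower in 9 of 17.

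**Figure D5:**
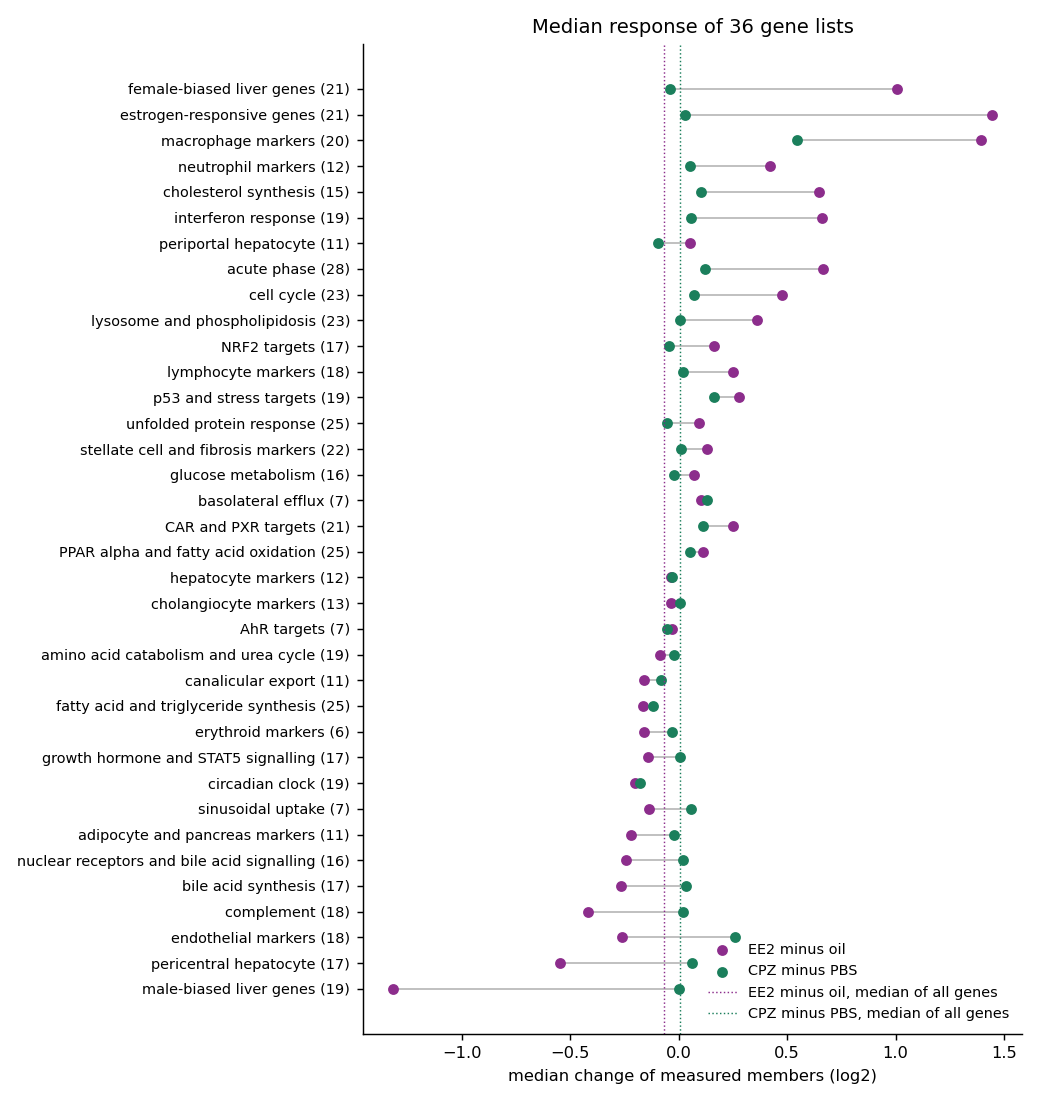
Median change (log2) of the measured members of 36 gene lists with EE2 and with CPZ, the number measured in brackets, ordered by the median difference; dotted lines are the medians of all genes. Macrophage markers lie at 1.39 and 0.54, and endothelial markers at -0.26 and 0.26.

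The vehicles differed at Aldh1b1, Atp6v0d2, Col27a1, Cry1, Cry2, Trim2, Ube2u and Zbtb45, of which Aldh1b1 alone passed 2-fold (oil minus PBS -1.06, limma adjusted p = 0.0046). The difference of responses was called at 5 of these 8, beside 31.6% of all genes: Atp6v0d2, Col27a1, Trim2, Ube2u and Zbtb45. That contrast contains oil minus PBS with its sign turned, so genes chosen for a vehicle difference are moved towards a call in it. They were named after their values were seen.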

How the data were processed

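The deposited table holds log2 RMA values of 17306 probe sets on 20 arrays; RMA is named in the submitters' processing notes, and its version, the probe definition and the genome build were not stated there. Probe sets were named through the platform annotation: 16464 had 1 symbol, and 842 without a symbol were left out of the tests. Each of the 20 columns was used, and no 2 were identical. A mean per group was fitted to all 20 arrays with limma 3.58.1 in R 4.3.3 (eBayes, two-sided, Benjamini-Hochberg), with 16 residual degrees of freedom. Arrays carry no counts, so their number limits the precision. The fit was tested on simulated data.

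The members and gene lists were chosen with earlier results of these data known. Genes were named by rule: the 6 highest and 6 lowest differences without overlap, up to 8 shared changes each way and up to 6 opposite ones by the smallest larger p, up to 6 called for CPZ and the difference and not for EE2 by size, 18 fixed genes, and up to 3 per list. Genes named beyond it (C1qa, Cd68, Adgre1, Dbp, Tef, Apoa4, Bmp2, Stab2 and the vehicle genes) were chosen after their values were seen. Alternatives were quantile normalization, centring, a floor, a filter on the lowest 30% of genes, array weights, a trended prior, the sample number as a covariate, a threshold of 0.10, separate fits of 10 arrays and leaving out arrays. Promoters came from RefSeq (GRCm38.p6).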

Additional observations from a re-analysis of the deposited data

Results flagged for a closer look

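In groups of 5 arrays, 26 of 516 groups of named genes and list means (5.04%) had 1 array far from the other 4, where chance gives about 5%, or about 1 in 20. The check looks for a single array, so a pair of high arrays in a group can mask each other. Lcn2 on CPZ arrays 1 and 11 is such a pair and was not flagged. The share near 5% therefore does not show that no arrays stood apart. On EE2 array 15, Cyp8b1 stood above the rest at 7.66, Abcb1a stood below the rest at 6.75. On EE2 array 18, Arntl stood below the rest at 2.97, Tek stood below the rest at 5.79. On oil array 2, Hectd2os stood below the rest at 6.88, Creld2 stood above the rest at 8.89, Arntl stood above the rest at 3.64. On oil array 6, Zfp758 stood below the rest at 6.09, Ctu1 stood below the rest at 4.80. On oil array 8, Slc25a32 stood below the rest at 5.16. On oil array 16, Krt4 stood below the rest at 3.20. On CPZ array 3, Rgn stood above the rest at 12.78. On CPZ array 4, Cyp17a1 stood below the rest at 5.93, Zbtb45 stood above the rest at 3.95. On CPZ array 11, Hsd3b5 stood below the rest at 11.75, Slco1a1 stood below the rest at 10.74, Clec4f stood above the rest at 9.65, Dbp stood above the rest at 10.51. On PBS array 7, Abcb11 stood above the rest at 11.17, Abcc2 stood above the rest at 11.35. On PBS array 14, Hectd2os stood above the rest at 7.92. On PBS array 20, Fam89a stood below the rest at 4.95, Lcn2 stood above the rest at 9.39, Per3 stood above the rest at 4.15, neutrophil markers mean stood above the rest at 4.56, acute phase mean stood above the rest at 10.46. All are log2 levels. Their part in the CPZ results is given only as the values without CPZ arrays 1 and 11 and PBS array 20; other causes were not tested.

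The 842 probe sets without a symbol were in no comparison. Of these, 238 (28.3%) were called in limma for the difference of responses, against 31.6% of the named genes, 105 higher and 133 lower. No name was given to them.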

How the results depend on the processing

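Limits: 5 arrays a group, 1 dose and 1 time, and vehicles that differ. No paired analysis was possible because the groups share no sample number. With the sample number as a covariate, whose meaning is not given, the difference calls were 3048, CPZ 20, same way 12, opposite 2 and vehicles 2. That number is unbalanced between groups: 1 to 12 in CPZ, 7 to 20 in PBS, 2 to 16 in oil and 9 to 18 in EE2. Its part and that of treatment cannot be fully told apart. Cyp2b10 (4.05), Cyp2c55, Cyp2c29, Gadd45g, Wfdc17, Gys2, Zbtb11, Riok2 and Avpr1a were among those still called for CPZ. Centring gave 8194 difference calls (1664 higher, 6530 lower) and 11846 EE2 calls, and turned the EE2 change of Cyp3a11 to -0.15 and of Hsp90b1 to -0.001. Fits of 10 arrays gave CPZ 64, same way 29, opposite 15 and vehicles 0 (in limma over all arrays, 1414 genes had an unadjusted p under 0.05 for the vehicles). Array weights gave CPZ 237 and opposite 60, a floor at the lower quartile opposite 19, and a trended prior vehicles 13. At 0.10, CPZ gave 334, same way 152, opposite 80 and vehicles 18. Without CPZ arrays 1 and 11 and PBS array 20, chosen after seeing the data, same-way calls were 39 (10 higher, 29 lower).

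Leaving out 1 array in turn gave 4730 to 5264 difference calls, 6885 to 7689 EE2, 47 to 158 CPZ, 25 to 80 same way, 9 to 42 opposite and 2 to 19 vehicles. CPZ calls were 47 without PBS array 14, 53 without CPZ array 3, 65 without CPZ array 4 and 86 without CPZ array 1. Same-way calls were 25 without PBS array 14, 27 without CPZ array 3, 32 without CPZ array 4 and 43 without PBS array 7. Opposite calls were 9 without PBS array 14, 10 without CPZ array 3, 13 without CPZ array 4, 18 without CPZ array 12 and 19 without CPZ array 1. Vehicle calls were 2 without PBS array 14, 3 without oil array 5 or 8, 4 without oil array 2 or 6 or PBS array 20, 5 without EE2 array 15 or 18 or CPZ array 12, 14 without CPZ array 11 and 19 without PBS array 19. The causes were not tested.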
